A study of Homo sapiens with 9 samples.

Results

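The genes of MHC class II antigen presentation were followed in B6TC, a hybrid breast cancer cell line, and in both of its parents (MDA-MB-231, ZR-75-1). They comprised 10 genes, namely the antigen-presenting chains HLA-DRA, HLA-DRB1, HLA-DPA1, HLA-DPB1, HLA-DQA1 and HLA-DQB1, the peptide exchange chains HLA-DMA and HLA-DMB, the invariant chain CD74 and the transcriptional coactivator CIITA. Members were chosen by name, as every probe set whose gene symbol is 1 of the 10 or whose several symbols include 1 of them. This gave 32 of the 54613 probe sets on the array that are not controls, and 26 of the 32 carried a single symbol. The filter level, a log2 value of 6 or more on 3 or more of the 9 arrays, was reached by 11 of the 32, which were tested among 21095 such probe sets in all. The other 21 lay below this level and are given from a fit of all 54613 probe sets.

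MHC class II molecules are heterodimers of an alpha and a beta chain that carry peptides from endosomes to the cell surface, where CD4+ T cells read them. The invariant chain CD74 fills the peptide groove during assembly, and the HLA-DM dimer then exchanges its last fragment for antigenic peptide. The genes are switched on together by CIITA, which does not bind DNA itself but joins the RFX and NF-Y complexes on conserved X and Y boxes of their promoters. Class II is a feature of dendritic cells, macrophages and B cells, and many epithelial and tumor cells turn it on when exposed to interferon gamma.

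Total RNA of each line was read on 3 arrays, 9 in all, which the labels call technical replicates, so the p-values below measure only the spread between arrays of the same cells. B6TC is a GFP+, estrogen-independent line that grew from GFP-expressing cells of mouse bone marrow (the B6 cells) through a tumor raised without estrogen and G418 selection, and the labels call it a fusion of MDA231 and ZR75 cells. MDA-MB-231 was the ER negative GFP/Neo line, a G418-resistant clone named clone 10, and ZR-75-1 was the ER positive GFP/puro line. All lines thus carried GFP, all were cultured breast cancer cells, and B6TC and MDA-MB-231 stand for 1 isolate each, while no untreated or interferon-treated reference culture is part of the design.

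Array medians lay between 4.89 and 4.96 on the log2 scale, and the median absolute difference between arrays of a line was 0.058 to 0.0885. Of 6 luminal epithelial markers, all were called lower and none higher in B6TC than ZR-75-1. All 6 mesenchymal markers were called higher, where 41.6% of all genes were called lower and 42.8% higher. The third B6TC array stood apart in the luminal markers, of which 5 of 6 were highest there, by up to 3.57 over the mean of the other 2 arrays. The 11 tested class II probe sets differed on that array by −0.11 to 0.13, and values without it are given with the counts and positions below. Poly-A spike-in probe sets averaged 9.08 for B6TC and 5.68 for MDA-MB-231, while ZR-75-1 read 7.54, and the 3′ probe set of ACTB exceeded the 5′ one by 0.67, 0.32 and 0.73 in the same order of lines. The part of these differences in the class II values was not tested.

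Class II genes were lower in B6TC than MDA-MB-231 wherever a difference was called. Over all 32 probe sets, 16 were called lower in B6TC and 0 higher (limma on all 54613 probe sets, Benjamini-Hochberg adjusted p of 0.05 or less), where 15.7% of all probe sets were called lower and 15% higher. Without regard to a model, all 3 B6TC arrays lay below all 3 MDA-MB-231 arrays at 19 of the 32, against 22.3% of all probe sets. Against ZR-75-1, 8 of the 32 were called higher in B6TC and 0 lower, where 21.6% of all probe sets were called higher and 26.4% lower. Between the parental lines, 17 of the 32 were called higher in MDA-MB-231 and 0 lower, where 22.6% and 23.9% of all probe sets were called. The median log2 difference over the 32 was −0.34 for B6TC minus MDA-MB-231, 0.03 for B6TC minus ZR-75-1 and 0.39 for MDA-MB-231 minus ZR-75-1, beside −0.03, −0.06 and −0.01 over all probe sets.

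The 11 probe sets above the filter level were lower in B6TC than MDA-MB-231 throughout, 9 of them by at least 2-fold (limma, adjusted over 21095 probe sets). This count is a description, since 3 of the 11 passed the filter through MDA-MB-231 arrays alone and so had to be higher there. For 1 more, which passed through MDA-MB-231 and ZR-75-1 arrays, no B6TC array was at the level, so it had to be lower in B6TC as well. For comparison, 31.3% of the tested probe sets were called lower in B6TC and 33.9% higher, and 1.28% were called lower by at least 2-fold. Against ZR-75-1, 7 of the 11 were called higher in B6TC and 0 lower, where 43% and 40.6% of tested probe sets were. This count is a description too, since 4 of the 11 passed the filter through B6TC and MDA-MB-231 arrays alone. With no ZR-75-1 array at the level, these 4 were favored to be higher in B6TC. Without the third B6TC array, 11 of 11 were again called lower than MDA-MB-231, and 6 higher than ZR-75-1. At the brightest probe set of each gene, the log2 differences from MDA-MB-231 were then −1.01 for HLA-DRB1, −1.93 for HLA-DPA1, −0.94 for HLA-DPB1, −0.79 for HLA-DMA and −0.77 for HLA-DMB, each still called by limma. Between the parental lines 11 of 11 were called higher in MDA-MB-231, where 43.8% of tested probe sets were called higher and 39.9% lower. That count is likewise a description, since both the 3 and the 4 probe sets named above had no ZR-75-1 array at the filter level.

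Promoter sequence is shown because the X and Y boxes are the shared element through which this gene group is known to be read, and it is given for genes with and without the X box spelling. RefSeq promoters (GRCh38.p14, 250 bases before to 50 after the start) were matched for 8 of the 10 genes, without HLA-DRA and CIITA. Each was searched on both strands for an X box written as CNAGNNACNGATG, a Y box written as CTGATTGG, and the CCAAT element ATTGG, which the Y box contains. The spelling of the X box was chosen after these promoters had been seen. It was present in 4 of the 8 genes and in 0.142% of 35116 promoters, the Y box in 3 genes and 3.97% of promoters, and the CCAAT element in 7 genes and 34.6% of promoters. The windows below run 5′ to 3′ on the coding strand, which is the plus strand of the reference for HLA-DPB1 and the minus strand for the others, with the X box and the Y box in capitals. For HLA-DMB the second stretch in capitals is an inverted CCAAT element, and for CD74 and HLA-DPB1, where the X box spelling had no match, an inverted CCAAT element is the stretch marked. The HLA-DPB1 window also holds a forward ATTGG, at bases −99 to −95 from the start, which is left in lower case.
HLA-DRB1, chr6:32589880-32589939: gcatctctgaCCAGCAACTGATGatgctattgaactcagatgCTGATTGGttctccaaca
HLA-DQB1, chr6:32666731-32666790: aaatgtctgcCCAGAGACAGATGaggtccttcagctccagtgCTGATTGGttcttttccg
HLA-DMA, chr6:32953162-32953222: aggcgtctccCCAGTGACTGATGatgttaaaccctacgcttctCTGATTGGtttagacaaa
HLA-DMB, chr6:32941036-32941128: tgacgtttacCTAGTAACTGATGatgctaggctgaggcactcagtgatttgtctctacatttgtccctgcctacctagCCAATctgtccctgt
CD74, chr5:150412949-150413008: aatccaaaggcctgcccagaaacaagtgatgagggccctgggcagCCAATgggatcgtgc
HLA-DPB1, chr6:33075870-33075929: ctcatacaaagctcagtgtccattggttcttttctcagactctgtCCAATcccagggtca
The X box and the Y box were 19 bases apart in HLA-DRB1 and in HLA-DQB1 and 20 bases apart in HLA-DMA. In HLA-DMB the Y box spelling had no match. The 55 bases between its marked elements run to the CCAAT element and are not an X to Y box distance. Genes with the spelling included HLA-DRB1, HLA-DMA and HLA-DMB, which were lower in B6TC than MDA-MB-231, and HLA-DQB1, whose own probe sets stayed below the filter level. Genes without it included CD74, HLA-DPB1 and HLA-DPA1, which were lower as well, and HLA-DPA1 matched none of the searched letters. HLA-DQA1, whose window is not shown, also lacked the spelling. It stayed below the filter level and was not called, at −0.19 at its brightest probe set (limma on all probe sets, adjusted p = 0.218). A match describes the letters of the reference and not of these cell lines, and no binding was measured. A missing match does not mean that a gene lacks an X box, since forms with other letters or with extra bases were not searched.

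HLA-DRA encodes the alpha chain of HLA-DR, the most widely expressed class II molecule, and it differed most between B6TC and MDA-MB-231 among the members. At probe set 208894_at the log2 level was 5.95 on each of the 3 B6TC arrays and 8.51, 8.26 and 8.15 for MDA-MB-231, while ZR-75-1 read 4.06, 3.91 and 4.15. The 3 lines did not overlap, with B6TC between its parents. HLA-DRA was 5.12-fold lower in B6TC than MDA-MB-231, a log2 difference of −2.35 (SE, standard error, 0.090; limma adjusted p = 4.74e-08), and 3.76-fold higher than ZR-75-1 (log2 difference 1.91, limma adjusted p = 1.01e-08). The identical B6TC values leave no spread between arrays of this line, as was the case for 0.928% of all probe sets in B6TC, and the test then rests on the variance shared with the other lines and probe sets.

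The other HLA-DRA probe set, 210982_s_at, gave the same order. Its log2 level was 5.92, 6.03 and 6.03 for B6TC and 8.20, 8.14 and 8.19 for MDA-MB-231, while ZR-75-1 was at 5.07, 5.07 and 4.77. Again no line overlapped another. The log2 difference of B6TC was −2.18 relative to MDA-MB-231 (SE 0.078, limma adjusted p = 3.06e-08) and 1.03 relative to ZR-75-1 (limma adjusted p = 4.69e-07), and MDA-MB-231 exceeded ZR-75-1 by 3.21 (limma adjusted p = 7.92e-11). Without the third B6TC array the difference from MDA-MB-231 was −2.20 (limma adjusted p = 4.52e-07).

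HLA-DRB1 encodes the beta chain that pairs with the HLA-DRA product, and its probe sets read similar levels in B6TC and ZR-75-1, close to the filter level. At 208306_x_at, the single-symbol probe set, the log2 level was 6.27, 6.27 and 6.24 for B6TC and 7.09, 7.55 and 7.20 for MDA-MB-231, while ZR-75-1 read 6.23, 6.17 and 6.20. B6TC was 2.02-fold lower than MDA-MB-231, with a log2 difference of −1.02 (SE 0.096, limma adjusted p = 9.78e-06). Its difference from ZR-75-1 of 0.06 was not called (95% interval −0.16 to 0.27, limma adjusted p = 0.585). All 3 B6TC arrays nevertheless lay just above all 3 of ZR-75-1.

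Of 5 further probe sets that list HLA-DRB1 with other HLA-DRB copies or HLA-DQB1, 3 were above the filter level. They cannot be assigned to 1 gene, since these copies are nearly alike in sequence. At 215193_x_at, which lists HLA-DRB4, HLA-DRB3, HLA-DRB1 and HLA-DQB1, the log2 level was 5.80, 5.77 and 5.80 for B6TC and 7.80, 7.70 and 7.66 for MDA-MB-231, while ZR-75-1 was at 5.57, 6.13 and 5.89. B6TC lay below every MDA-MB-231 array, at a log2 difference of −1.93 (limma adjusted p = 5.62e-07), and within the range of ZR-75-1, at −0.07 (95% interval −0.33 to 0.18, limma adjusted p = 0.575). The probe set 209312_x_at gave −1.61 relative to MDA-MB-231 (limma adjusted p = 9.95e-07) and 0.23 relative to ZR-75-1 (95% interval −0.00 to 0.47, limma adjusted p = 0.0626). The probe set 204670_x_at gave −1.05 (limma adjusted p = 3.76e-06) and 0.01 (95% interval −0.19 to 0.20, limma adjusted p = 0.953). All 4 HLA-DRB1 probe sets above the filter level were thus lower in B6TC than MDA-MB-231, and none was called different from ZR-75-1. Single arrays changed this last point: without the first ZR-75-1 array 215193_x_at was called lower in B6TC, at −0.22 (limma adjusted p = 0.0247), and without the second 209312_x_at was called higher, at 0.32 (limma adjusted p = 0.0192). The remaining 2, 238900_at and 221491_x_at, stayed at or under a log2 value of 4.27 on all arrays and were not called between B6TC and either parent. The 4 above the filter level all have the shared-sequence ending _x_at, and their B6TC and ZR-75-1 means ran from 5.79 to 6.34. The HLA-DQB1 probe set 211656_x_at, not called between any lines, averaged 5.77 and 5.88 in these lines. How much of the HLA-DRB1 levels of B6TC and ZR-75-1 is background was not tested.

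**Figure D1:**
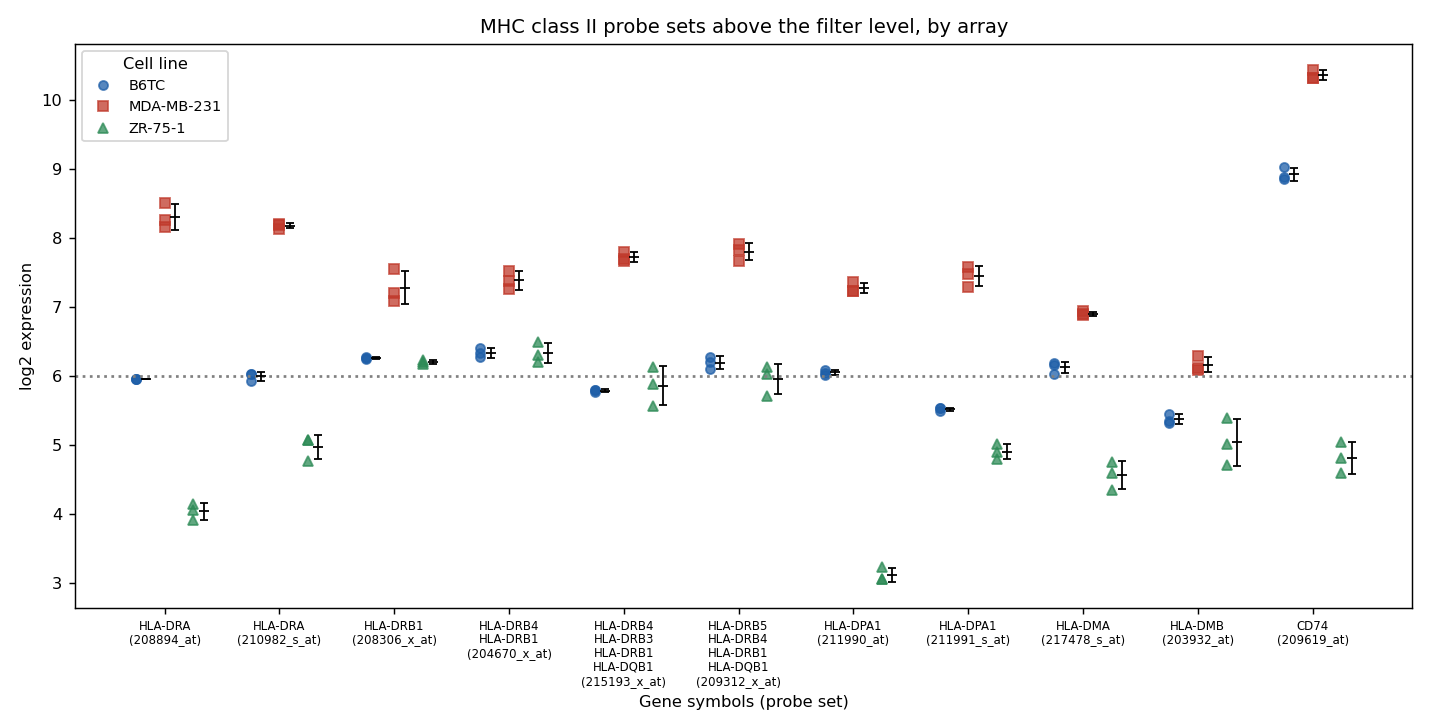
Log2 expression (y axis) of the 11 class II probe sets above the filter level (x axis) on the 3 arrays each of B6TC (circles), MDA-MB-231 (squares) and ZR-75-1 (triangles), with the mean and SD of each line as a bar; the dotted line is the filter level of 6. MDA-MB-231 is highest at every probe set, B6TC lies between the parents for HLA-DRA, HLA-DPA1, HLA-DMA and CD74, and B6TC and ZR-75-1 lie together at the HLA-DRB probe sets; levels are not comparable between probe sets.

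HLA-DPA1, the alpha chain of HLA-DP, was intermediate in B6TC at both probe sets above the filter level. At 211990_at the log2 level was 6.05, 6.09 and 6.02 for B6TC and 7.36, 7.23 and 7.24 for MDA-MB-231, while ZR-75-1 read 3.06, 3.23 and 3.05. B6TC was 2.34-fold lower than MDA-MB-231 (log2 difference −1.22, SE 0.062, limma adjusted p = 2.15e-07) and 7.67-fold higher than ZR-75-1 (log2 difference 2.94, limma adjusted p = 2.9e-11). The lines were far apart here, and the B6TC level was nearer to that of MDA-MB-231.

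At 211991_s_at the log2 level was 5.53, 5.50 and 5.53 for B6TC and 7.58, 7.47 and 7.29 for MDA-MB-231, while ZR-75-1 was at 4.79, 4.90 and 5.02. Here B6TC was 3.81-fold lower than MDA-MB-231 (log2 difference −1.93, SE 0.079, limma adjusted p = 6.97e-08) and 1.53-fold higher than ZR-75-1 (log2 difference 0.62, limma adjusted p = 3.22e-05). Both HLA-DPA1 probe sets gave the same order of the lines, but the size of each step differed between them. The dimmest, 213537_at, stayed under 4 on all arrays and differed by −0.52 relative to MDA-MB-231 (limma on all probe sets, adjusted p = 0.00599) and by 0.31 relative to ZR-75-1 (adjusted p = 0.0491 in the same limma fit), with B6TC and ZR-75-1 arrays overlapping.

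HLA-DPB1, the beta chain partner of HLA-DPA1, stayed below the filter level in all lines. At 201137_s_at its log2 level was 4.47, 4.50 and 4.30 for B6TC and 5.38, 5.42 and 5.47 for MDA-MB-231, while ZR-75-1 read 4.27, 4.43 and 4.31. It was lower in B6TC than MDA-MB-231 by a log2 difference of −0.999 (SE 0.073, limma on all probe sets, adjusted p = 4.13e-06). The difference from ZR-75-1 of 0.09 was not called (limma adjusted p = 0.369), and the arrays of these lines overlapped. Its other probe set, 244485_at, lay between 2.91 and 3.23 on all arrays, and no pair of lines was called different.

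HLA-DQA1 and HLA-DQB1 encode the chains of HLA-DQ, and their own probe sets gave little signal. The 4 probe sets of HLA-DQA1, 1 of them shared with HLA-DQA2, stayed between 2.13 and 4.06 on all arrays. Their log2 differences between B6TC and MDA-MB-231 ran from −0.19 to 0.05, and none was called between any pair of lines. Of the 7 single-symbol probe sets of HLA-DQB1, 1 was called, 210747_at, at levels of 2.93, 3.00 and 2.85 for B6TC and 3.37, 3.15 and 3.59 for MDA-MB-231, while ZR-75-1 was at 2.95, 3.12 and 2.91. Its log2 difference was −0.44 relative to MDA-MB-231 (limma on all probe sets, adjusted p = 0.00958) and −0.07 relative to ZR-75-1 (limma adjusted p = 0.648). The brightest, 211656_x_at, read 5.75, 5.76 and 5.79 for B6TC and 6.17, 5.98 and 5.83 for MDA-MB-231, while ZR-75-1 read 5.73, 5.93 and 5.99, and no pair was called. Without the third MDA-MB-231 array its difference of B6TC from that line was −0.31 and was called (limma adjusted p = 0.0361). At these levels a change of HLA-DQ transcripts could not be seen reliably, and the probe sets that list HLA-DQB1 together with HLA-DRB copies do not settle its level.

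HLA-DMA encodes the alpha chain of HLA-DM, the chaperone that edits peptide loading. Its log2 level was 6.03, 6.19 and 6.15 for B6TC and 6.88, 6.89 and 6.94 for MDA-MB-231, while ZR-75-1 was at 4.35, 4.76 and 4.60. The 3 lines did not overlap. B6TC was 1.71-fold lower than MDA-MB-231 (log2 difference −0.78, SE 0.091, limma adjusted p = 3.93e-05) and 2.94-fold higher than ZR-75-1 (log2 difference 1.56, limma adjusted p = 5.36e-08).

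HLA-DMB, the beta chain of HLA-DM, read 5.46, 5.35 and 5.32 for B6TC and 6.30, 6.08 and 6.12 for MDA-MB-231, while ZR-75-1 read 4.71, 5.01 and 5.39. It was 1.73-fold lower in B6TC than MDA-MB-231 (log2 difference −0.79, SE 0.14, limma adjusted p = 0.00065). Its log2 difference of 0.34 from ZR-75-1 was just inside the threshold (limma adjusted p = 0.0461), but a ZR-75-1 array at 5.39 lay among those of B6TC. The call was lost without filter (adjusted p = 0.0743 by limma) and when any B6TC or MDA-MB-231 array, or the first or second ZR-75-1 array, was left out. HLA-DMB is therefore reported as not reliably different between B6TC and ZR-75-1, while MDA-MB-231 exceeded ZR-75-1 by 1.13 (limma adjusted p = 2.41e-05).

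CD74, the invariant chain, separated all 3 lines. At 209619_at its log2 level was 8.89, 9.03 and 8.85 for B6TC and 10.44, 10.32 and 10.33 for MDA-MB-231, while ZR-75-1 was at 4.81, 5.05 and 4.59. B6TC was 2.71-fold lower than MDA-MB-231 (log2 difference −1.44, SE 0.10, limma adjusted p = 1.54e-06) and 17.2-fold higher than ZR-75-1 (log2 difference 4.11, limma adjusted p = 9.25e-11). Between the parental lines the log2 difference was 5.55 (limma adjusted p = 1.27e-11). Without the third B6TC array, CD74 differed by −1.40 relative to MDA-MB-231 and by 4.14 relative to ZR-75-1 (limma adjusted p = 1.38e-05 and 1.43e-09).

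A dim CD74 probe set, 1567628_at, showed the same order of lines at 4.58, 4.59 and 4.59 for B6TC and 6.17, 5.71 and 6.03 for MDA-MB-231, while the mean of ZR-75-1 was 3.99. Its log2 differences were −1.38 relative to MDA-MB-231 (SE 0.098, limma on all probe sets, adjusted p = 3.59e-06) and 0.60 relative to ZR-75-1 (limma adjusted p = 0.000338). The third CD74 probe set, 1567627_at, lay between 4.72 and 5.28 with overlapping lines and was not called in any comparison, so the CD74 probe sets did not all separate the lines.

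CIITA, the coactivator that turns on the class II genes, was below the filter level on every array, with a highest value of 5.04 over its 3 probe sets. At 205101_at it read 3.53, 3.53 and 3.45 for B6TC and 3.94, 3.76 and 3.76 for MDA-MB-231, while ZR-75-1 was at 3.45, 3.29 and 3.48. B6TC lay below all MDA-MB-231 arrays, at a log2 difference of −0.31 (SE 0.076, limma on all probe sets, adjusted p = 0.00888), and overlapped ZR-75-1, at 0.10 (limma adjusted p = 0.325). The other probe sets, 210925_at and 211884_s_at, differed by −0.17 and −0.09 from MDA-MB-231 with overlapping arrays and were not called (limma adjusted p = 0.264 and 0.379). A difference in CIITA was thus called at 1 of 3 dim probe sets, and the mean of all 3 differed by −0.19 (limma adjusted p = 0.025 in a fit over gene means).

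**Figure D2:**
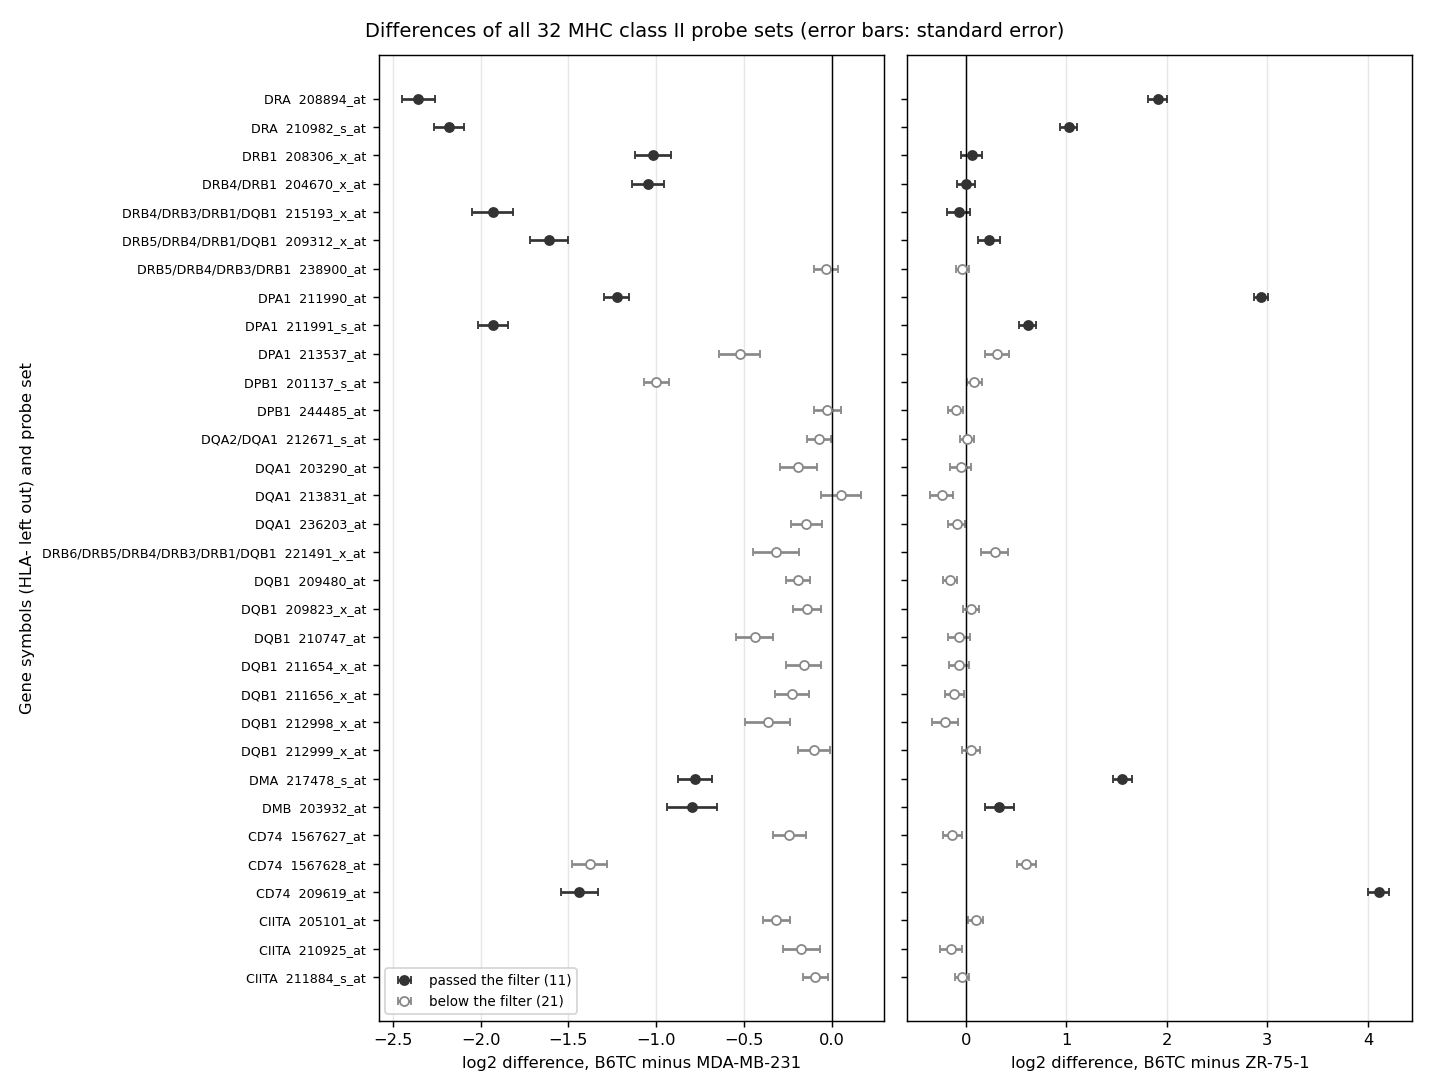
Log2 difference (x axis) of B6TC from MDA-MB-231 (left) and of B6TC from ZR-75-1 (right) for all 32 class II probe sets (y axis), with standard errors; filled points passed the filter, open points did not. The filled points run from −2.35 to −0.78 on the left, and on the right from −0.07 to 4.11, with HLA-DRB probe sets near 0 and CD74 farthest to the right.

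The order of the lines was described at the array level, as comparisons that use the same B6TC arrays are not independent. All 3 B6TC arrays lay below every MDA-MB-231 array and above every ZR-75-1 array at 8 of the 32 class II probe sets (25%), and at 5.81% of all probe sets. These were 2 probe sets each of HLA-DRA, HLA-DPA1 and CD74, that of HLA-DMA and, by the narrowest margin, the single-symbol probe set of HLA-DRB1. The position of B6TC between its parents was expressed on a scale that ran, in log2 units, from 0 (mean of MDA-MB-231) to 1 (mean of ZR-75-1), for probe sets whose parental difference was at least 1. CD74 lay at 0.259 and HLA-DMA at 0.333, so both were nearer to MDA-MB-231. The HLA-DPA1 probe sets lay at 0.294 and 0.758, those of HLA-DRA at 0.552 and 0.680, and HLA-DMB at 0.703. Probe sets that list HLA-DRB1 lay between 0.873 and 1.04, at the ZR-75-1 end. Without the third B6TC array the positions ran from 0.253 for CD74 to 1.04 for 215193_x_at. For comparison, the 3579 tested probe sets at least 2-fold higher in MDA-MB-231 than ZR-75-1 had a median position of 0.0140, with quartiles at −0.154 and 0.204. All 11 class II probe sets above the filter level lay beyond the upper quartile, which is given as a description with no test. Several ZR-75-1 levels were under 6, where log2 differences may be compressed. At the probe sets that list HLA-DRB1, both B6TC and ZR-75-1 were close to 6, so their positions may reflect background, which was not tested.

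Among all 21095 tested probe sets ordered by their difference between B6TC and MDA-MB-231, the HLA-DRA probe sets were at places 8 and 13 from the lower end. HLA-DPA1 was at places 20 and 113, CD74 at place 63, the HLA-DRB probe sets between places 19 and 258, HLA-DMB at 593 and HLA-DMA at 645. HLA-DMB and the probe sets at places 8 and 20 passed the filter through MDA-MB-231 arrays alone. That at place 19 passed through MDA-MB-231 and ZR-75-1 arrays, with no B6TC array at the level. A low place was thus built into all of these. The probe set at place 13 also needed MDA-MB-231 arrays to pass, which favored a low place. The places are given as a description.

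**Figure D3:**
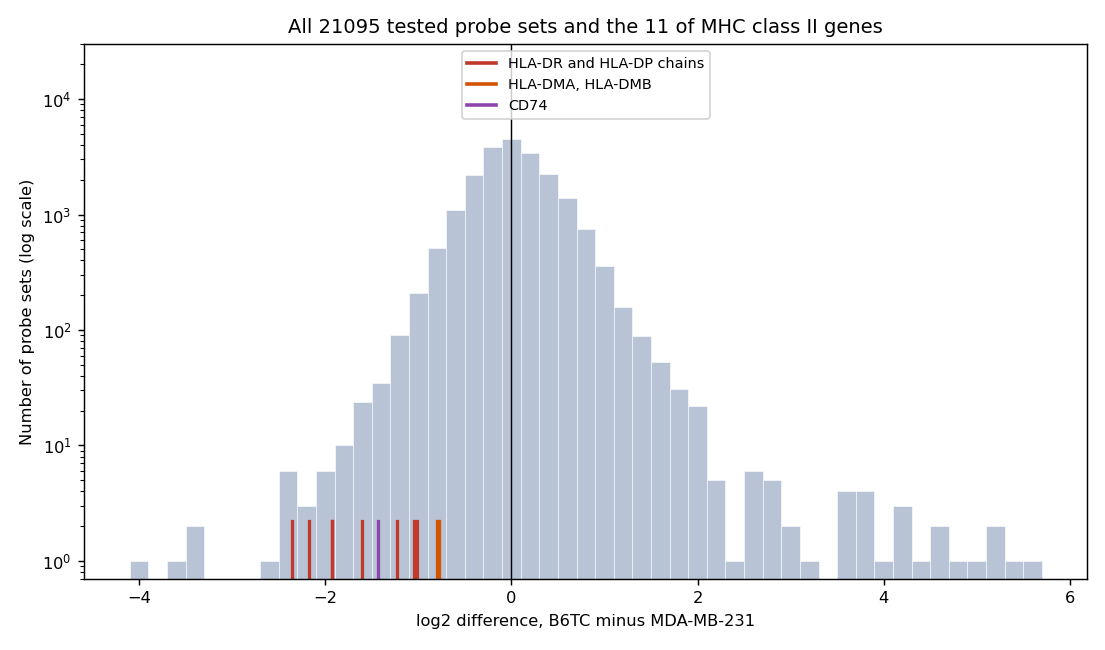
Histogram of the log2 difference of B6TC from MDA-MB-231 (x axis) over 21095 tested probe sets, with their number on a log scale (y axis); coloured ticks mark the 11 class II probe sets. HLA-DR and HLA-DP chains run from −2.35 to −1.02, CD74 is at −1.44 and the HLA-DM chains are at −0.78 and −0.79, all in the left tail.

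The genes whose pattern over the 9 arrays was most like that of CD74, at 1 probe set per gene, were not class II genes. By the root mean square difference of centered log2 values over 10745 other genes, these were APOBEC3G, a cytidine deaminase that restricts retroviruses (0.331), OSBPL3, a lipid-binding protein (0.339), CAVIN1, a coat protein of caveolae (0.339), EPHA2, a receptor tyrosine kinase (0.357), and UBASH3B, a tyrosine phosphatase (0.397). The distances of the class II members from CD74 depended on the probe set. HLA-DPA1 was at 0.612 at 211990_at, with 48 genes closer to CD74, but at 1.55 at 211991_s_at, with 821 closer. HLA-DRA was at 0.919 at 208894_at (234 genes closer) and at 1.32 at 210982_s_at (524 closer). HLA-DMA was at 1.39, HLA-DMB at 1.96, and the probe sets that list HLA-DRB1 lay between 1.79 and 2.04. The values were centered but not scaled, so this distance reflects the size of the line differences as well as their order. Between the parental lines CD74 differed by 5.55, HLA-DMB by 1.13 and HLA-DRB1 by 1.08 at 208306_x_at.

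The factors that CIITA works with were measured in all lines. Of 10 genes of the RFX and NF-Y complexes and their cofactors, 4 were called higher in B6TC than MDA-MB-231, 4 lower and 2 neither, with a median log2 difference of 0.07 (over 10751 genes, 36.5% were called higher and 28.5% lower, with a median of 0.04). RFXAP, a subunit of the RFX complex that binds the X box, was at 6.31 ± 0.068 for B6TC and 4.29 ± 0.30 for MDA-MB-231, while ZR-75-1 read 6.57 ± 0.13 (mean log2 level ± SD, n = 3 arrays). It was thus higher in B6TC than MDA-MB-231 by 2.02 (SE 0.13, limma adjusted p = 8.08e-07), opposite in direction to the class II genes. The difference is given as a description, since RFXAP passed the filter through B6TC and ZR-75-1 arrays alone. With MDA-MB-231 below the filter level, RFXAP was favored to be higher in B6TC. The values are those of 1 of its 2 probe sets, and a bearing of RFXAP on the class II levels was not tested. EP300, a histone acetyltransferase, was higher by 0.74 and by 1.58 at its tested probe sets (limma adjusted p = 4.9e-06 and 1.15e-06). NFYC, an NF-Y subunit, was at −0.45 at its brightest probe set (limma adjusted p = 1.2e-05) and between −1.003 and −0.61 at the others. Against ZR-75-1, 6 of the 10 were called higher in B6TC and 3 lower (42.8% and 41.6% of genes), with KAT2B at 1.96, CREBBP at −0.91 and EP300 at −0.74. Between MDA-MB-231 and ZR-75-1, 6 were called higher and 4 lower (42.5% and 41.9% of genes).

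Interferon gamma reaches CIITA through its receptor, JAK kinases and the factor IRF1. Of 7 tested genes of this route, read at the brightest probe set of each, 1 was called higher in B6TC than MDA-MB-231 and 3 lower. This is beside the 36.5% and 28.5% of all genes, and the 1 called higher was IFNGR1, whose probe sets disagreed. IRF1 was at 7.02 ± 0.078 for B6TC and 8.10 ± 0.033 for MDA-MB-231, while ZR-75-1 was at 6.31 ± 0.012 (mean log2 level ± SD, n = 3 arrays), the same order of lines as HLA-DRA and CD74. Its log2 difference of B6TC from MDA-MB-231 was −1.09 (SE 0.049, limma adjusted p = 1.16e-07) and −0.62 at another probe set. The receptor gene IFNGR2 was at −0.46 (limma adjusted p = 1.29e-05). IFNGR1 was called in opposite directions by its probe sets, at 0.35 and −0.28 (limma adjusted p = 0.000289 and 0.000334), and is left without a direction. Against ZR-75-1, 4 of the 7 were called higher in B6TC and 2 lower (42.8% and 41.6% of all genes).

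Interferon-induced genes were called in both directions. Of 12 listed, 5 were below the filter level, and of the 7 tested 5 were called higher in B6TC than MDA-MB-231 and 1 lower (36.5% and 28.5% of all genes), with a median log2 difference of 0.56. The guanylate-binding proteins GBP2 and GBP1 were higher by 0.82 and 0.79, and IFIT1 by 0.72 (limma adjusted p = 7.3e-06, 0.000332 and 3.32e-06), while MX1 was lower, at −0.33 (limma adjusted p = 0.002). Against ZR-75-1, 5 were called higher in B6TC and 2 lower (42.8% and 41.6% of all genes). GBP1 was at 5.57 and IFIT3 at 4.72 and, at another probe set, 1.99.

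Class I presentation genes, which lie partly in the same chromosomal region, were lower in B6TC than MDA-MB-231 at 6 of 10 tested and higher at 0 (28.5% and 36.5% of all genes), with a median log2 difference of −0.29. HLA-B was at −0.98, TAPBP, which helps load class I peptides, at −0.98 (−0.44 at another probe set) and HLA-F at −0.77 (limma adjusted p = 3.04e-07, 6.03e-07 and 3.83e-07). Against ZR-75-1, 9 of the 10 were called higher in B6TC and 1 lower (42.8% and 41.6% of all genes), with a median of 1.15. The peptide transporter gene TAP2 led at 4.67 (2.90 at another probe set). The immunoproteasome genes PSMB8 and PSMB9 followed at 3.55 and 3.08. Between MDA-MB-231 and ZR-75-1 all 10 were called higher, with a median of 1.55, where 42.5% of all genes were called higher and 41.9% lower.

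Of the endosomal proteases that process antigen and the invariant chain, 3 of 7 tested were called higher in B6TC than MDA-MB-231 and 2 lower, near the 36.5% and 28.5% of all genes. CTSD was at −0.93, the asparaginyl endopeptidase LGMN at 0.63 and CTSH at −0.60 (limma adjusted p = 4.95e-06, 1.68e-06 and 0.000101). Against ZR-75-1, 3 were called higher and 4 lower (42.8% and 41.6% of all genes), with SPPL2A, which cleaves the remnant of CD74, at −2.69. Genes of class II turnover and partners of CD74 were called higher in B6TC than MDA-MB-231 at 2 of 5 tested and lower at 2, beside the same shares of all genes. CXCR4, a chemokine receptor that can act with CD74, was at 2.98 at its brightest probe set and at 1.03 and 1.04 at the other 2, MARCHF8, a ubiquitin ligase that removes class II from the surface, at 0.72 and the CD74 ligand MIF at −0.23 (limma adjusted p = 1.9e-08, 1.13e-06 and 0.00125). All 3 CXCR4 probe sets were lower in B6TC than ZR-75-1, at −2.09 to −2.01 on the log2 scale. Of 4 tested costimulation and adhesion genes, 1 was called higher in B6TC than MDA-MB-231, 1 lower and 2 neither, beside the 36.5% and 28.5% of all genes. These were ICAM1 at 0.66 and CD40 at −0.63 (limma adjusted p = 5.52e-05 and 5.51e-06). Of 8 further class II genes outside the members, 3 had no probe set of their own and 4 lay below the filter level, while HLA-DRB copies among them are listed on the shared probe sets above. HLA-DOA, a chain of the HLA-DM inhibitor HLA-DO, was at −0.41 relative to MDA-MB-231 and −0.18 relative to ZR-75-1 (limma adjusted p = 0.000277 and 0.0191), so that it was lowest in B6TC.

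**Figure D4:**
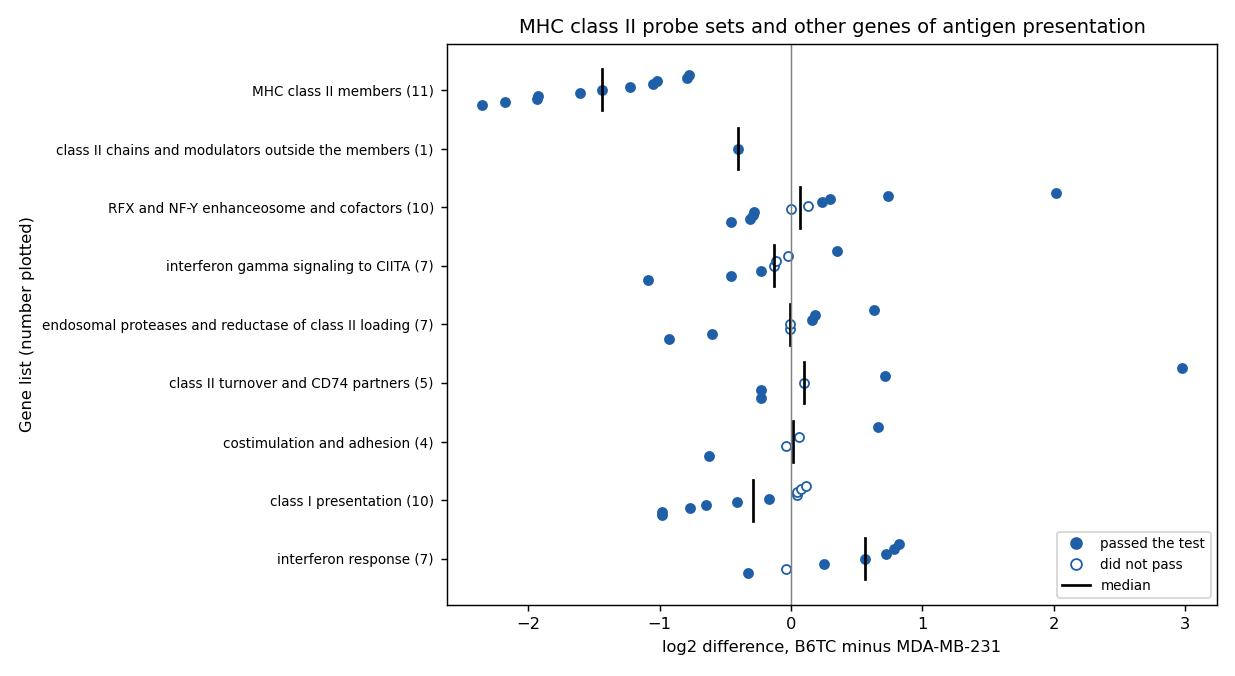
Log2 difference of B6TC from MDA-MB-231 (x axis) for the 11 class II probe sets above the filter level and for 1 probe set per tested gene of 8 other lists (y axis); filled points passed the test, open points did not, and bars are medians. The class II probe sets all lie below −0.7, class I genes have a median of −0.29, and the other lists spread to both sides of 0 apart from the lone HLA-DOA.

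Human markers of professional antigen-presenting cells and other leukocytes were read as a description. All lines were cultured breast cancer cells. The probe sets are for human transcripts, so mouse cells carried over from the marrow or tumor cannot be judged by them. Of 16 markers, 14 had a probe set of their own and 12 of these stayed below the filter level. The mean log2 level of these 12 was 4.32 to 4.45 for B6TC and 4.40 to 4.51 for MDA-MB-231, while ZR-75-1 was at 4.41 to 4.45, so the arrays of the lines overlapped. Over all 14 the mean was 4.92 to 5.04 for B6TC and 5.04 to 5.16 for MDA-MB-231, while ZR-75-1 read 4.56 to 4.66. PTPRC, the pan-leukocyte antigen CD45, averaged 3.25 for B6TC and 3.42 for MDA-MB-231, while ZR-75-1 was at 3.26. ITGAM, AIF1, CSF1R and CD14, found on myeloid cells, were below the filter level but at 5.47, 5.39, 5.32 and 5.30 in B6TC, above the array medians. In the same order they read 5.57, 5.48, 5.33 and 5.00 in MDA-MB-231, and 5.52, 5.56, 5.39 and 4.64 in ZR-75-1. Other myeloid markers of the list, LYZ, FCER1G, TYROBP, CD163 and ITGAX, were at 3.50 to 4.51 in B6TC, under the array medians. The markers above the filter level were CD79A, which was not called between B6TC and MDA-MB-231 (−0.09, limma adjusted p = 0.55), and LAPTM5. LAPTM5, a lysosomal membrane protein of blood cells, was at 10.78 for B6TC and 11.51 for MDA-MB-231, while ZR-75-1 was at 4.90. The order of the lines was that of CD74, with a log2 difference of −0.73 from MDA-MB-231 (limma adjusted p = 0.00956). Fewer expressing cells and less RNA per cell cannot be told apart in these bulk samples, for any of the class II genes.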

How the data were processed

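RNA of 3 cell lines was hybridized to U133 Plus 2.0 arrays of Affymetrix. The deposited values are on the log2 scale, and per the labels the authors processed them by RMA in Affymetrix Expression Console (versions not given in the sources used here), whereas the methods name GC-RMA; neither step could be rerun from summarized values. RMA compresses differences of dim probe sets, and its values carry no depth; the number of arrays limits the precision. Symbols were updated by gene identifier, of which 55 were not found in the GRCh38.p14 gene table; 41091 probe sets carried a single symbol, 1801 several and 11721 none.

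Lines were compared with limma 3.58.1 in R 4.3.3 (1 mean per line, all 9 arrays, 6 residual and 3.68 prior degrees of freedom), on probe sets at the filter level on 3 or more arrays (log2 value of 6 or more), with Benjamini-Hochberg adjustment over all of them and calls at 0.05. The 62 control probe sets were left out. The procedure was tested on simulated data. All members were named, and of the other lists, at 1 probe set per gene (the highest mean), the counts and up to 3 called genes with the largest differences in a comparison. Members and lists were chosen with earlier results of these data known. Alternatives were no filter, an added interquartile range filter, robust regression, other variance moderation, renewed quantile normalization, median centering, a replicate block, fewer arrays, other choices of probe sets and a 2-fold minimum.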

Additional observations from a re-analysis of the deposited data

How the results depend on the processing

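The count of class II probe sets called lower in B6TC than MDA-MB-231 (11) was 16 of 32 without filter and 9 with a 2-fold minimum, and 11 under the other alternatives that kept these probe sets and without each array in turn. It was 4 of 4 over single-symbol probe sets without shared-sequence endings and 6 of 6 over means per gene, where fewer were tested. Against ZR-75-1 the count of 7 ranged from 6 to 7 without single arrays (6 higher and 1 lower without the first ZR-75-1 array) and was 4 of 4 over single-symbol probe sets. Between the parental lines the count of 11 was 17 of 32 without filter, 4 of 4 over single-symbol probe sets, 6 of 6 over means per gene and 11 without each array. Robust regression called 9 against ZR-75-1, 8 higher and 1 lower, where the lower one was 215193_x_at in both cases. Replicate numbers did not pair the arrays (same-number correlations of −0.10 to 0.18), and with the replicate number as a block the counts were 11, 6 and 11; HLA-DMB against ZR-75-1 lost its call (limma adjusted p = 0.0657).

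Small differences that were not called changed sign. HLA-DRB1 between B6TC and ZR-75-1 was at −0.0203 after renewed quantile normalization and, with robust regression, at 0.06 with a limma adjusted p of 0.0439. HLA-DPB1 in that comparison was at −0.00706 over means per gene, and HLA-DQA1 at 0.00174 after quantile normalization and between −0.120 and 0.0256 without single arrays. Between MDA-MB-231 and ZR-75-1, HLA-DQA1 was at −0.0343 over means per gene and CIITA between −0.00925 (without the third ZR-75-1 array) and 0.0852 without single arrays. The cause was not tested. HLA-DMB between B6TC and ZR-75-1 ranged from 0.17 to 0.51 without single arrays, with its call lost in 8 of 9 cases and without filter (limma adjusted p = 0.0743). It was also lost with the arrays of the compared lines only (limma adjusted p = 0.0769). Calls were gained for HLA-DQB1 with robust regression, at −0.21 against MDA-MB-231 and −0.16 against ZR-75-1 (limma adjusted p = 0.000926 and 0.00175), and over means per gene, at −0.23 against MDA-MB-231 and 0.16 between the parental lines (limma adjusted p = 0.00869 and 0.0348). CIITA gained calls over means per gene, at −0.19 against MDA-MB-231 and 0.16 between the parental lines (limma adjusted p = 0.025 and 0.0345). The interquartile range filter was not run for genes below the filter level. Dim probe sets limit what can be said of HLA-DQA1, HLA-DQB1, HLA-DPB1 and CIITA.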
